A study of Mus musculus with 80 samples.

Results

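Trh encodes the precursor of thyrotropin-releasing hormone (TRH), and it was followed here by every probe annotated to it, across all arrays of a study of kainic acid-induced epilepsy in the mouse hippocampus. The deposited series matrix held 1 Trh probe (ILMN_1237934) among 21244 probes, and Trh was 1 of 11381 genes tested. The gene was chosen because its level on the injected side rose after kainic acid and because that rise grew from day 7 to day 60. Its differences between kainic acid and sham on the injected side, their change between days, and the differences between the sides in kainic acid animals are therefore given as descriptions, without a test.

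Hippocampi of 40 male C57BL/6J mice, 12 weeks old at surgery, were measured on 80 Illumina BeadChip arrays, which read messenger RNA with bead-bound probes. The right dorsal hippocampus was injected with 50 nl of 20 mM kainic acid in saline (KA; kainic acid activates a class of glutamate receptors and provokes seizures) or with the same volume of saline alone (sham). Tissue was taken 7, 28 or 60 days later, from 8, 9 and 9 animals given KA, and from 4, 5 and 5 given saline, in that order of days. The series' design text counts the 5 day 60 sham arrays of each side under KA, whereas the labels of the single samples call them sham, and these labels were used. The injected (ipsilateral, IL) and the other (contralateral, CL) hippocampus of each animal were put on separate arrays, and sham animals had the surgery and the saline injection as well. No transgene or engineered allele was used, and the sources used here state no seizure count for single animals.

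TRH is a peptide of very few residues that is cut from a large precursor holding many copies of its sequence. Prohormone convertases cleave the precursor, a cyclase closes the first residue into pyroglutamate, and an amidating enzyme finishes the other end. Hypothalamic neurons release TRH to drive thyrotropin from the pituitary, whereas elsewhere in the brain it acts as a neuromodulator on receptors coupled to Gq proteins and phospholipase C. In rats, seizures are known to raise Trh messenger RNA in hippocampal granule cells.

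The region before the start of Trh is shown because the gene is described here by its own transcript level, and no binding or methylation was measured. RefSeq places it on the minus strand at chr6:92244651-92244900 of the mouse assembly GRCm38.p6, and this stretch covers 250 bases that end at the base before the annotated start. Capitals mark the motifs found by a search of both strands, and 68.8% of these bases were G or C.

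Trh: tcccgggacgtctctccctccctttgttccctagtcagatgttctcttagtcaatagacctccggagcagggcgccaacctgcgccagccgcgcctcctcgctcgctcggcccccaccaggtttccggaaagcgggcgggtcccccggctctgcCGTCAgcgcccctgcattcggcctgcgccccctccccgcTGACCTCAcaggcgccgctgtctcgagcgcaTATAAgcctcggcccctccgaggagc

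The letters TATAA occurred 1 time, at position -26 counted from the start, and 24.9% of 32851 RefSeq windows of 300 bases hold them on either strand. The full cyclic AMP response element TGACGTCA was not found in the window of Trh and was present in 1.79% of windows. Its half-site TGACG was found 1 time, on the opposite strand at position -96, where it reads CGTCA above, and 20.8% of windows hold it. The element TGACCTCA, known from the human TRH promoter, began at position -57 and was present in 2.17% of windows. None of these matches overlaps another. Each match is a description of the letters and not a measured binding site.

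On the injected side Trh was well above background in nearly all KA animals at the 3 days, and near background in sham animals. At day 7 the log2 level in KA animals ran from 5.87 to 10.58 with a median of 9.83 (8.95 ± 1.82, SD, n = 8). The 4 sham arrays of day 7 read 5.88, 5.58, 5.73 and 5.94 (5.78 ± 0.16, SD, n = 4). Of the 8 KA arrays, 7 lay above every sham array and 1 lay within the sham range.

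At day 28 the KA arrays ran from 7.82 to 11.32 with a median of 9.80 (9.75 ± 0.95, SD, n = 9). The sham arrays read 5.94, 6.02, 6.41, 5.69 and 6.47 (6.10 ± 0.33, SD, n = 5). All 9 KA arrays lay above all 5 sham arrays.

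At day 60 the KA arrays ran from 8.74 to 12.08 with a median of 10.77 (10.69 ± 1.0, SD, n = 9). The sham arrays read 5.80, 5.96, 5.76, 5.78 and 5.04 (5.67 ± 0.36, SD, n = 5). Again all 9 KA arrays lay above the 5 sham arrays, and this was the group with the highest mean of the 12.

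**Figure D1:**
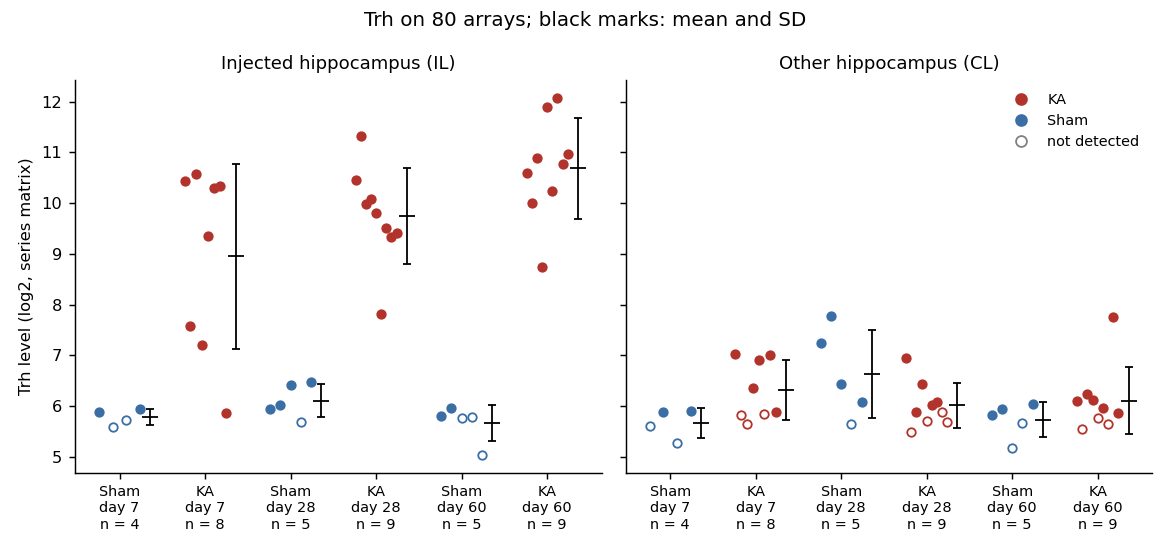
Trh log2 level (y axis, deposited series matrix values) on each of the 80 arrays by treatment, day and side; open circles are arrays on which the probe was not detected, and black marks give mean and SD. Injected-side KA arrays reach 12.08, while the highest array outside these 3 groups reads 7.77.

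The fitted difference between KA and sham on the injected side was 3.17 ± 0.52 log2 units (SE) at day 7, 3.64 ± 0.47 at day 28 and 5.02 ± 0.47 at day 60. On the scale of the deposited values these correspond to 9.01-fold, 12.5-fold and 32.4-fold, but the sham arrays lay near background, so the folds depend on how low values were scaled. Median scaling of the log2 intensity gave 4.75, 5.08 and 7.28 log2 units. The share of all tested genes past an adjusted p of 0.05 (limma) in the same comparisons was 10.4%, 5.83% and 4.51%, and nothing is read from these for Trh, since the contrast chose the gene. The difference grew by 0.47 ± 0.70 (SE) from day 7 to day 28, by 1.38 ± 0.66 from day 28 to day 60, and by 1.85 ± 0.70 over the whole span. From day 28 to day 60 the KA mean went from 9.75 to 10.69 and the sham mean from 6.10 to 5.67. Part of the later growth thus lay in sham levels near background. In whole-tissue RNA, more cells that carry a transcript and more transcript per cell cannot be told apart.

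The growth between days 7 and 28 moved with 1 animal. Without replicate 8 of the injected day 7 KA group, whose Trh level was 5.87, the day 7 difference was 3.62, the growth to day 28 was 0.02 and the growth from day 7 to day 60 was 1.40 log2 units. That array also read like sham for glial genes, with Gfap at 8.72, Gpnmb at 8.48 and Lcn2 at 5.36, against group medians of 11.08 for Gfap in day 7 KA animals and 8.33 in sham. The other hippocampus of the same animal (replicate 7 of the CL day 7 KA group) read 8.23 for Gfap, and it had the highest mean of 6 thalamus markers of all arrays, 9.61, where no other array exceeded 8.39. Its Trh level was 7.01.

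Signal over background differed between the groups. The probe was detected (p under 0.05 against control beads) on 26 of 26 injected-side KA arrays and on 33 of the other 54. In injected-side sham animals it was detected on 2 of 4 arrays at day 7, 4 of 5 at day 28 and 2 of 5 at day 60, so the differences above are partly against a level at background. The deposited background-subtracted intensity ran from 19.7 to 1975.6 in day 7 KA animals, from 222.3 to 3059.1 at day 28 and from 544.2 to 5799.1 at day 60. Over all injected-side sham arrays it ran from -10.7 to 43.9 in the same units. The array with the highest log2 level, 12.08 (day 60 KA replicate 7, slide 9), had an intensity of 1344.9, below its group's median of 1968.9. The array at 5799.1 read 11.90, so the ranges of log2 level and intensity end on different arrays. Without replicate 7 the day 60 difference was 4.84 log2 units. The part of scaling in this was not tested. Ranked by the mean log2 level of all 11381 genes, with probe brightness not corrected for, Trh stood above 71.6%, 80.9% and 90% of genes in KA animals of days 7, 28 and 60, and above 18.1%, 28.6% and 13.1% in sham.

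By the SD of log2 levels, KA animals differed from each other in injected-side Trh more than in nearly any other gene. The SD of Trh on the injected side ranked 5, 8 and 9 among 11381 genes at days 7, 28 and 60. In the sham groups of these days it ranked 5476, 3621 and 2134. The ranks do not correct for the level of a gene or the size of its rise, and the sham levels lay near background. At day 7 the KA arrays read 10.43, 7.57, 10.58, 7.20, 9.36, 10.29, 10.33 and 5.87. Apart from the 3 lowest, all of these lay above 9.

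**Figure D2:**
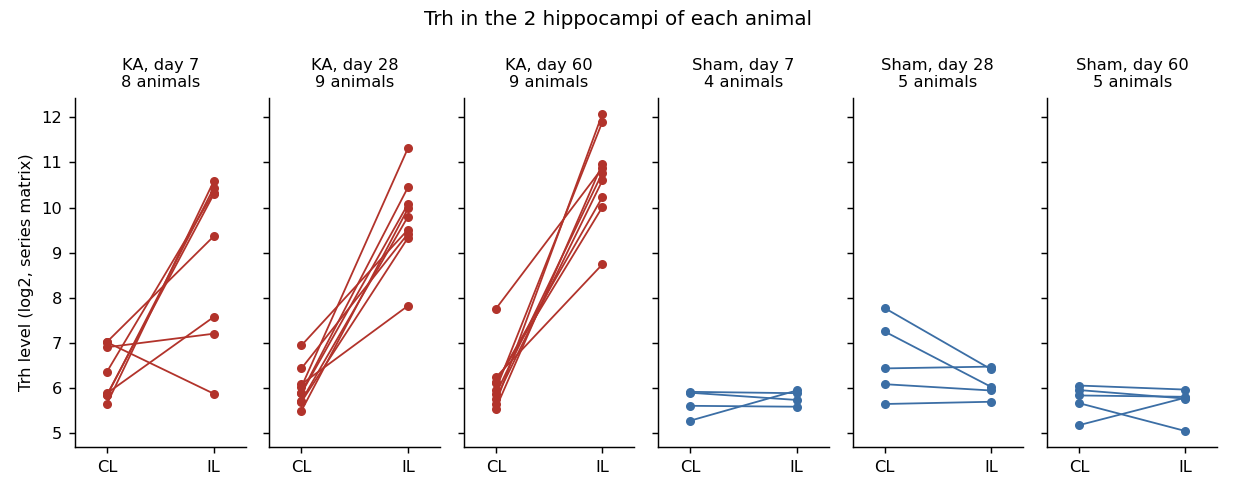
Trh log2 level in the uninjected (CL) and injected (IL) hippocampus, with a line per animal, for KA and sham animals at each day. The line rises in 25 of 26 KA animals and in 4 of 14 sham animals.

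Within single animals, the injected hippocampus exceeded the other by 2.64 ± 2.23 log2 units (SD, n = 8) at day 7, with values from -1.15 to 4.92 and 7 of 8 animals higher on the injected side. The difference was 3.73 ± 1.11 (SD, n = 9) at day 28, from 1.74 to 5.30, and 4.58 ± 1.29 (SD, n = 9) at day 60, from 2.51 to 6.43, with all 9 animals higher at each of these days. In the 14 sham animals it was -0.18 ± 0.57 (SD, n = 14), from -1.36 to 0.66.

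On the uninjected side, which was not used to choose the gene, no change of Trh passed the test. At day 7 the KA arrays ran from 5.65 to 7.02 with a median of 6.12 (6.31 ± 0.59, SD, n = 8), and the sham arrays read 5.60, 5.89, 5.27 and 5.91 (5.67 ± 0.30, SD, n = 4). The groups overlapped, since 4 of the 8 KA levels exceeded the highest sham level and the others did not. The difference was 0.64 ± 0.52 (SE), with an adjusted p of 0.89 (limma, all 11381 genes, two-sided), in a comparison where 1.47% of genes passed.

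At day 28 the CL arrays of KA animals ran from 5.49 to 6.94 with a median of 5.89 (6.01 ± 0.44, SD, n = 9). The sham arrays read 7.25, 7.77, 6.43, 5.64 and 6.08 (6.63 ± 0.87, SD, n = 5), so the 2 highest CL levels of this day were in sham animals. The difference was -0.62 ± 0.47 (SE, limma adjusted p = 0.656, with 0.0967% of genes past the threshold). Without these 2 sham arrays, which share a slide, it was -0.04 ± 0.55 (SE).

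At day 60 the CL arrays of KA animals ran from 5.54 to 7.75 with a median of 5.96 (6.11 ± 0.66, SD, n = 9), and sham arrays read 5.83, 5.95, 5.17, 5.66 and 6.05 (5.73 ± 0.35, SD, n = 5). The ranges overlapped, and the difference was 0.38 ± 0.47 (SE, limma adjusted p = 0.93, with 0.0527% of genes past the threshold). The difference between KA and sham on this side moved by -0.27 ± 0.70 (SE) from day 7 to day 60, with an adjusted p of 0.993 (limma). In that comparison no gene passed, and 729 of 11381 had an unadjusted p under 0.05.

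Saline injection alone gave no detectable difference between the sides. Sham IL minus CL, averaged over the 3 days, was -0.16 ± 0.31 (SE), with an adjusted p of 0.969 (limma). No gene passed in this comparison either, and 577 had an unadjusted p under 0.05. With the probe near background on many of these arrays, small differences could not be resolved. Under median scaling the CL differences were 2.12 ± 0.88, -1.27 ± 0.80 and 1.32 ± 0.80 (SE) at days 7, 28 and 60, and none passed (limma adjusted p = 0.427, 0.627 and 0.999).

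Ordered by mean, the 3 injected-side KA groups came first, from day 60 to day 28 to day 7, followed by CL sham of day 28 at 6.63. The remaining 8 groups lay between 5.67 and 6.31. The ranges of every neighbouring pair in this order overlapped, including day 7 KA and CL sham of day 28. Among single arrays, 23 of the 26 injected-side KA arrays exceeded all 54 others.

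Slides were set against the same comparison where a slide held injected-side KA and sham arrays of the same day. Slide 11 held KA arrays only. Many injected-side KA arrays shared no slide with an injected-side sham array of their day and are not covered. Within a slide, injected-side KA minus sham was 4.55, 2.55 and 2.51 log2 units at day 7 on 3 slides, 4.51 and 1.41 at day 28 on 2 slides, and 4.80, 2.78, 5.30 and 7.04 at day 60 on 4 slides. All 9 were positive, each from 1 or 2 KA arrays against 1 sham array. With slide as a term in the fit the differences were 3.14, 3.66 and 5.10.

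Among genes whose products sense and break down TRH, Pgpep1 rose and Trhde fell on the injected side. Of 5 listed genes, 4 were tested; the receptor gene Trhr2 had its probe detected on 0 of 80 arrays. On the injected side 1 rose and 1 fell at day 7, 1 rose and 0 fell at day 28, and 1 rose and 1 fell at day 60. Of all genes tested, 7.40% rose and 3.02% fell at day 7, 4.40% and 1.42% at day 28, and 3.23% and 1.27% at day 60. The list's median difference was -0.47, -0.03 and 0.04 log2 units, against -0.04, -0.02 and -0.01 for all genes tested. On the uninjected side 0 of 4 passed at any day, with 0, 1 and 0 at an unadjusted p under 0.05 (limma). There 1.47%, 0.0967% and 0.0527% of all genes passed.

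Pgpep1 encodes pyroglutamyl-peptidase I, a cytosolic enzyme that removes the first residue of TRH and of other peptides. Its log2 level on the injected side of day 7 KA animals ran from 8.35 to 9.43 with a median of 9.15, and the sham arrays read 8.36, 8.31, 8.30 and 8.39. The single KA array within the sham range was that of the animal with the lowest Trh.

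Pgpep1 ran from 8.58 to 9.39 in KA animals of day 28, against 8.43, 8.50, 8.37, 8.92 and 8.35 in sham, and from 8.64 to 9.13 at day 60, against 8.45, 8.10, 8.16, 8.33 and 8.66. KA and sham overlapped slightly at both days. The gene rose by 0.69 ± 0.16, 0.56 ± 0.15 and 0.57 ± 0.15 log2 units (SE) at days 7, 28 and 60, with limma adjusted p of 0.00126, 0.0102 and 0.00917. A second probe for Pgpep1 differed by 0.56, 0.55 and 0.83. On the CL side the differences were 0.17, 0.04 and 0.20, none past the threshold.

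Trhde encodes the TRH-degrading ectoenzyme, which sits on the cell surface and splits TRH outside the cell. At day 7 its level ran from 6.30 to 7.72 with a median of 6.89 in KA animals and read 7.52, 7.61, 7.77 and 7.46 in sham. All KA arrays but the 1 of the animal with the lowest Trh, at 7.72, lay below every sham array. Trhde fell by 0.70 ± 0.16 (SE) at day 7, with a limma adjusted p of 0.00103.

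At day 60 Trhde ran from 6.90 to 7.46 in KA animals and read 7.65, 7.88, 7.83, 8.09 and 7.79 in sham, with no overlap. It fell by 0.67 ± 0.15 (SE, limma adjusted p = 0.00145). At day 28 the difference was -0.43 ± 0.15 (SE, limma adjusted p = 0.0664). On the CL side it was -0.28, 0.28 and -0.18 at days 7, 28 and 60, none past the threshold. No difference between the sides in the KA effect passed for Pgpep1 or Trhde; the nearest was Trhde at day 28, -0.71 (limma adjusted p = 0.0562). Differences between the sides passed for 0.0264%, 1.08% and 0.597% of genes at days 7, 28 and 60.

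The receptor gene Trhr was detected on 57 of 80 arrays. Its differences on the injected side were -0.62 ± 0.28, -0.17 ± 0.25 and 0.27 ± 0.25 log2 units (SE) at days 7, 28 and 60, with limma adjusted p of 0.163, 0.784 and 0.698. Prep, which encodes a prolyl endopeptidase able to cut TRH, differed by -0.32, 0.10 and -0.18, none past the threshold.

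**Figure D3:**
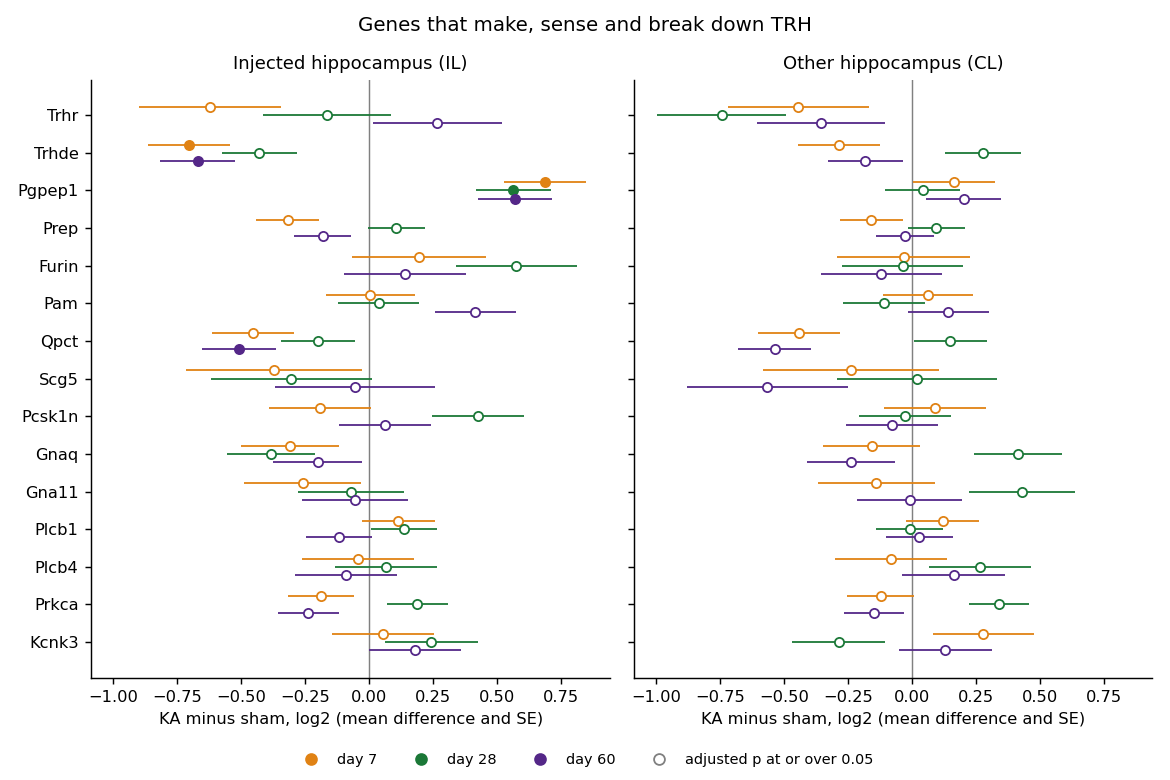
KA minus sham in log2 units with SE (x axis) for 15 genes that make, sense and break down TRH, at each day and on each side; filled circles have a limma adjusted p under 0.05. Filled circles appear on the injected side for Pgpep1 at all 3 days, Trhde at days 7 and 60, and Qpct at day 60.

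Of 9 listed genes that process the precursor, 5 were tested, and Pcsk1, Pcsk2 and Cpe had no probe in the lines used. On the injected side 0 passed at day 7, 0 at day 28 and 1 at day 60, with 1, 2 and 2 at an unadjusted p under 0.05 (limma). Among all genes tested, 10.4%, 5.83% and 4.51% passed there. The list's median difference was -0.19, 0.04 and 0.06. On the uninjected side none passed, with 1, 0 and 1 at an unadjusted p under 0.05 (limma). There 1.47%, 0.0967% and 0.0527% of all genes passed.

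Qpct, which encodes the glutaminyl cyclase that forms pyroglutamate, was the gene that passed. At day 60 it ran from 6.70 to 7.53 in KA animals and read 7.65, 7.45, 7.84, 7.90 and 8.03 in sham, with a small overlap. Qpct fell by 0.51 ± 0.14 (SE, limma adjusted p = 0.0228). The call was lost without any of 4 arrays, KA replicate 1 and sham replicates 3, 4 and 5, with adjusted p from 0.056 to 0.123, and under median scaling (adjusted p = 0.0503). On the CL side at day 60 the difference was -0.54 ± 0.14 (SE), with an adjusted p of 0.218. Pam, which encodes the amidating enzyme, differed by 0.00, 0.04 and 0.41 on the injected side and did not pass.

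Downstream of the receptor, 6 of 8 listed genes were tested: the Gq subunits Gnaq and Gna11, the phospholipases Plcb1 and Plcb4, the kinase Prkca and the channel Kcnk3. None passed on either side at any day. Of all genes tested, 10.4%, 5.83% and 4.51% passed on the injected side and 1.47%, 0.0967% and 0.0527% on the other. The counts at an unadjusted p under 0.05 (limma) were 0, 1 and 1 on the injected side and 0, 3 and 0 on the other. The median difference of the list on the injected side was -0.12, 0.10 and -0.10.

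Of 10 listed genes of the thyroid hormone axis, 6 were tested, among them the receptor Thra, the deiodinases Dio2 and Dio3 and the transporter Slco1c1. None passed, with 2, 2 and 0 at an unadjusted p under 0.05 (limma) on the injected side and 3, 1 and 0 on the other. The share of all genes that passed was 10.4%, 5.83% and 4.51% on the injected side and 1.47%, 0.0967% and 0.0527% on the other. The pituitary gene Tshb was detected on 3 of 80 arrays and was not tested.

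Other neuropeptide precursors were set beside Trh. Of 17 listed, 14 were tested. On the injected side 2 rose and 2 fell at day 7, 3 rose and 1 fell at day 28, and 5 rose and 2 fell at day 60. Among all genes tested, 7.40% rose and 3.02% fell there at day 7, 4.40% and 1.42% at day 28, and 3.23% and 1.27% at day 60. The median difference of the list was -0.08, 0.29 and 0.09. On the uninjected side 0 passed at days 7 and 60, where 1.47% and 0.0527% of all genes passed. The counts at an unadjusted p under 0.05 (limma) were 2 and 3. At day 28, 1 rose and 1 fell on that side, where 0.0264% of all genes rose and 0.0703% fell.

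Cartpt, the precursor of cocaine- and amphetamine-regulated transcript peptides, rose most among them. Its level ran from 6.93 to 13.28 with a median of 12.26 in day 7 KA animals, from 10.64 to 13.84 at day 28 and from 10.38 to 12.35 at day 60. The sham arrays of the same side lay between 6.78 and 7.90. Cartpt rose by 3.92 ± 0.66, 5.09 ± 0.60 and 4.02 ± 0.60 log2 units (SE, limma adjusted p = 4.99e-06, 3.96e-09 and 1.78e-06). On the CL side its mean differences were -0.04, -0.09 and -0.07, none past the threshold. Single CL arrays of KA animals were high, with replicates 1 and 4 of day 28 at 11.15 and 10.04 and replicate 8 of day 60 at 8.95. The highest CL sham array read 8.63. The highest injected-side difference of Cartpt was at day 28, whereas that of Trh was at day 60. The difference between these courses was not tested.

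Pdyn, which encodes the dynorphin precursor, rose by 1.48 ± 0.34, 2.16 ± 0.31 and 1.38 ± 0.31 (SE, limma adjusted p = 0.00129, 7.47e-07 and 0.00235). Npy, which encodes neuropeptide Y, differed by 0.40 ± 0.26 (SE) at day 7 and rose by 1.13 ± 0.24 at day 28 and 1.10 ± 0.24 at day 60 (limma adjusted p = 0.418, 0.000816 and 0.00121). It also rose on the uninjected side at day 28, by 1.04 ± 0.24 (SE, limma adjusted p = 0.0403), a call that was lost without any of 6 arrays (KA replicates 2, 3, 5, 6 and 9 and sham replicate 3, adjusted p from 0.0548 to 0.134) and under median scaling (adjusted p = 0.178).

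Gal, the galanin precursor, had its highest injected-side difference at day 60, as Trh did. It ran from 6.39 to 8.91 in KA animals of that day and read 6.10, 5.44, 5.90, 6.26 and 5.60 in sham, with no overlap. Gal rose by 1.80 ± 0.34 (SE, limma adjusted p = 0.000179) and differed by 1.05 ± 0.38 and 1.04 ± 0.34 at days 7 and 28 (adjusted p = 0.0594 and 0.0553). On the CL side Gal differed by 0.74, 1.23 and 1.03 at days 7, 28 and 60, none past the threshold (limma adjusted p = 0.604, 0.0797 and 0.424). No difference between the sides in the KA effect passed for Gal. Adcyap1, the precursor of the peptide PACAP, rose at day 60 by 0.85 ± 0.21 (SE, limma adjusted p = 0.00568), a call lost without sham replicate 1 (adjusted p = 0.0677).

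Cort, the cortistatin precursor of interneurons, fell on the injected side by 0.99, 1.03 and 0.93 log2 units at days 7, 28 and 60, and by 0.97 ± 0.19 (SE, limma adjusted p = 0.0202) on the other side at day 28; the last call was lost without sham replicate 3 (adjusted p = 0.0773). Tac1, the substance P precursor, fell by 0.72 at day 7, a call lost without sham replicate 1 (adjusted p = 0.0947). Nts, the neurotensin precursor, fell by 0.59 at day 60, and 2 arrays, sham replicates 3 and 5, each took that call below the threshold when left out (adjusted p from 0.0603 to 0.131).

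**Figure D4:**
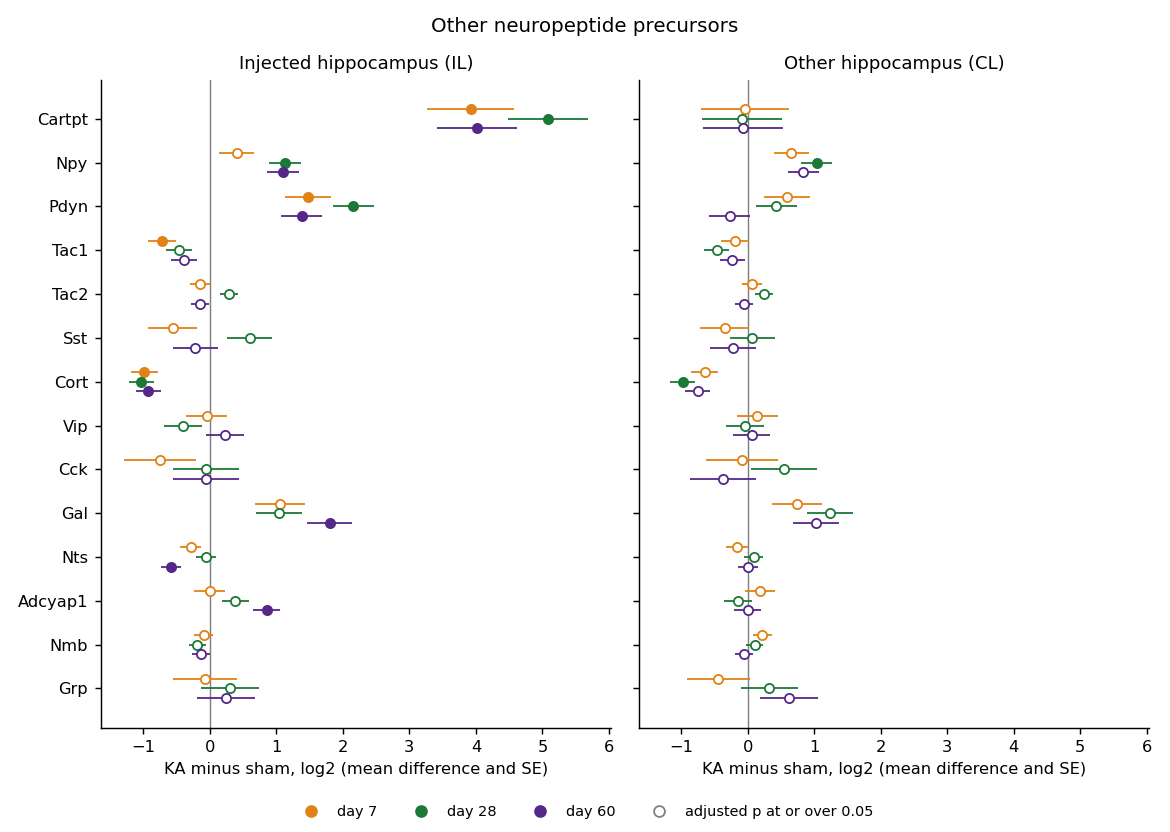
KA minus sham in log2 units with SE (x axis) for the 14 other neuropeptide precursors tested, at each day and on each side; filled circles have a limma adjusted p under 0.05. Cartpt stands apart on the injected side with differences of 3.92, 5.09 and 4.02, and its mean differences lie near 0 on the other, where single KA arrays were high.

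Of 8 listed transcription factors induced by neuronal activity 7 were tested. On the injected side 3 rose at day 7, 1 at day 28 and 0 at day 60 (0 at an unadjusted p under 0.05 as well, limma). Among all genes tested, 7.40%, 4.40% and 3.23% rose there. The mean level of Fos was 9.04, 8.83 and 9.07 in KA animals of days 7, 28 and 60, and 7.05, 9.11 and 8.89 in sham, so KA animals differed little between days while sham was low at day 7. Npas4 averaged 8.14, 8.05 and 7.97 in KA animals and 6.75, 7.65 and 7.26 in sham. Atf3 averaged 6.21, 5.75 and 5.51 in KA animals and 5.19, 5.13 and 5.52 in sham. Against the sham animals of the same day, Fos rose by 1.98 ± 0.47 (SE), Npas4 by 1.38 ± 0.39 and Atf3 by 1.02 ± 0.20 at day 7 (limma adjusted p = 0.00148, 0.0114 and 0.000111). The Npas4 call was lost without sham replicate 4 (adjusted p = 0.078). At day 28 Atf3 rose by 0.62 ± 0.18 (SE, limma adjusted p = 0.0274), and this was lost without any of 4 arrays (KA replicate 1 and sham replicates 2, 3 and 5, adjusted p from 0.0529 to 0.126) and with neqc values (adjusted p = 0.186). On the CL side none passed at days 7, 28 and 60, with 1, 0 and 0 at an unadjusted p under 0.05 (limma). There 1.47%, 0.0967% and 0.0527% of all genes passed. Bdnf, a growth factor also induced by activity, rose by 1.26 ± 0.31, 1.52 ± 0.28 and 1.57 ± 0.28 (SE, limma adjusted p = 0.00233, 0.000119 and 5.85e-05) at days 7, 28 and 60.

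The makeup of the tissue was checked beside these values. Of the listed granule and pyramidal cell markers, Prox1, C1ql2, Wfs1, Fibcd1, Pou3f1, Mpped1 and Bok were detected on 80 of 80 arrays. Grik4 was detected on 77, Iyd on 51 and Neurod6 on 3. Calb1, Dsp, Tdo2 and Lct had no probe in the lines used. Markers of hypothalamus, a region rich in Trh, were low. The list had 5 of 8 genes tested and 0 higher on the injected side, where 7.40%, 4.40% and 3.23% of all genes rose. Pmch fell by 0.77 at day 60, a call lost without sham replicate 5 (limma adjusted p = 0.0897) and under median scaling (limma adjusted p = 0.18). Avp was detected on 18 arrays, Oxt on 27, Hcrt on 24, Pmch on 25, Pomc on 14 and Otp on 1 of 80, and Sim1 and Agrp had no probe in the lines used. The mean log2 level of the 5 genes ran from 5.33 to 6.49 in injected-side KA arrays of day 7, from 5.49 to 5.94 at day 28 and from 5.51 to 6.01 at day 60, against 5.43 to 6.16 in sham arrays of that side.

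Of 7 thalamus markers 6 were tested and 0 passed on either side at any day, with 2, 1 and 1 at an unadjusted p under 0.05 (limma) on the injected side and 1, 1 and 1 on the other. Their mean ran from 7.39 to 8.39 in injected-side KA arrays and from 7.55 to 7.89 in sham arrays of that side. Of 6 choroid plexus markers 5 were tested and 0 passed. The counts at an unadjusted p under 0.05 (limma) were 0, 1 and 0 on the injected side and 0 at each day on the other. Beside both lists, 10.4%, 5.83% and 4.51% of all genes passed on the injected side and 1.47%, 0.0967% and 0.0527% on the other. Among 4 neocortex markers Fezf2 fell by 0.73 at day 7 and by 0.64 at day 60, and the day 60 call was lost without KA replicate 7 or sham replicate 5 (adjusted p from 0.0602 to 0.098) and under median scaling (adjusted p = 0.1). Rorb, of the same list, differed by 0.38, 0.39 and 0.26 at days 7, 28 and 60 without passing, and the list's median was -0.55, -0.19 and 0.05.

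Markers of glia also rose after KA on the injected side, and their part in the level of Trh was not tested. All 5 reactive astrocyte markers rose at each day there, with median differences of 2.31, 2.26 and 1.96 log2 units, and 4, 0 and 0 rose on the uninjected side. Of 5 activated microglia markers, 5, 5 and 3 rose on the injected side, with medians of 3.23, 2.28 and 1.15. On the other side 5, 0 and 0 rose, where 1.42% of all genes rose and 0.0439% fell at day 7. Among all genes tested, 7.40%, 4.40% and 3.23% rose on the injected side at days 7, 28 and 60. Calls lost without any of 7 arrays were those of Cd52 on the injected side at day 60 (adjusted p from 0.0525 to 0.193) and of Lcn2 and Gpnmb on the other side at day 7 (adjusted p from 0.0645 to 0.112). With slide as a block Lcn2 and Gpnmb were lost too (adjusted p = 0.167 and 0.0728), and Gpnmb also with the mean of its probes (adjusted p = 0.169). Both injected-side medians were highest at day 7 and lowest at day 60, but not every member followed this order. Lcn2 differed by 4.18, 3.45 and 3.91, Gpnmb by 3.55, 3.13 and 3.19, and Cst7 by 2.60, 2.83 and 0.99. The other listed markers fell from day to day. Their course was not tested against that of Trh. At CL day 7, 9 of these 10 markers rose, Lcn2 and Gpnmb with the losses above. Trh differed there by 0.64 ± 0.52 (SE) and did not pass. The Trh probe was near background on many CL arrays, so a small difference could not be resolved. A link between Trh and these markers on that side was not tested.

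Of the 6 dentate granule cell markers 2 were tested. Prox1, a transcription factor of these cells, differed by 0.62 ± 0.25, 0.88 ± 0.23 and 0.61 ± 0.23 (SE) on the injected side and passed at day 28 (limma adjusted p = 0.111, 0.0105 and 0.125). The other, C1ql2, differed by -0.33, -0.51 and -0.41 and did not pass, and the median of the 2 was 0.15, 0.19 and 0.10. Of 8 pyramidal cell markers 7 were tested. On the injected side, where 3.02%, 1.42% and 1.27% of all genes fell, 1, 1 and 2 of them fell at days 7, 28 and 60. These were Mpped1 at day 7, by 0.55, and at day 28, by 0.57, and Pou3f1, by 0.96, and Iyd, by 0.56, at day 60. The Mpped1 call was lost without sham replicate 3 at day 7 (adjusted p = 0.0595) and under median scaling at day 28 (adjusted p = 0.304), and the Iyd call without any of 6 arrays (adjusted p from 0.0563 to 0.165) and under median scaling (adjusted p = 0.0708).

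Trh was then followed between animals of the same day, which the choice of the gene did not use. For the 26 KA animals, the deviation of injected-side Trh from the mean of its day was set against 8 other measures, with permutation within day (100000 resamples, two-sided) and Benjamini-Hochberg adjustment over the 8. Animals with more Trh also had more Npy (Pearson r = 0.69, Spearman rho = 0.65, adjusted p = 0.00184 and 0.0052) and more Gfap, an astrocyte filament (r = 0.74, rho = 0.63, adjusted p = 0.00064 and 0.0052) in the same hippocampus. Npy and Trh went the same way at each day, with r of 0.83, 0.61 and 0.55 at days 7, 28 and 60 (n = 8, 9 and 9, described without a test). Gfap did so at days 7 and 60, both with r = 0.85, and not at day 28, with r = 0.05.

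Both relations held without the 2 animals farthest from the median, with r = 0.62 for Npy and 0.60 for Gfap (permutation adjusted p = 0.00884 for both). With the slide effect removed r was 0.61 for Npy and 0.76 for Gfap. No p is given for that setting, since removing days and slides leaves the deviations dependent on each other. The permutation does not allow for this, so its p can be too low. Npy varied little between animals of a group, with SDs of 0.41, 0.18 and 0.38, against 1.82, 0.95 and 1.0 for Trh.

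**Figure D5:**
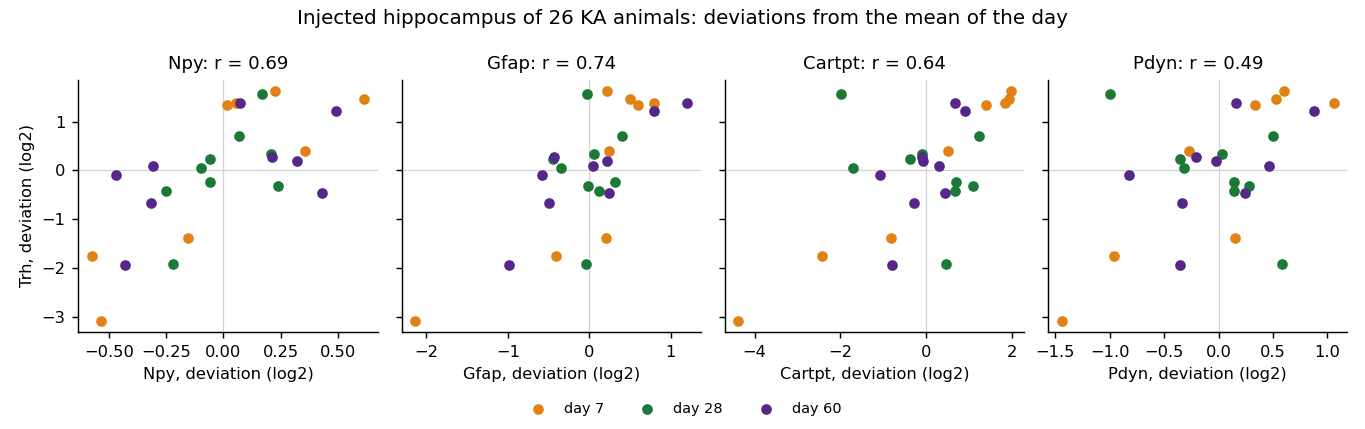
Deviation of injected-side Trh from the mean of its day (y axis, log2) against the deviation of Npy, Gfap, Cartpt or Pdyn (x axes, log2) in the 26 KA animals, coloured by day. The lowest point in every panel is replicate 8 of day 7, and the day 28 points run downward for Cartpt and Pdyn.

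Other relations rested on few animals or differed between days. Cartpt gave r = 0.64 and rho = 0.56 (permutation adjusted p = 0.0136 and 0.0221), made of 0.98, -0.47 and 0.70 at days 7, 28 and 60. Without the animal with the lowest Trh its r was 0.46 (adjusted p = 0.0794), and without the 2 farthest animals 0.39 (adjusted p = 0.153). Pdyn gave r = 0.49 and rho = 0.41 (permutation adjusted p = 0.0507 and 0.0814), with 0.88, -0.70 and 0.53 by day, and r = 0.29 without the animal with the lowest Trh (adjusted p = 0.285).

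Bdnf gave r = 0.53 and rho = 0.53 (permutation adjusted p = 0.0356 and 0.0221), with 0.81, -0.24 and 0.25 by day, and fell to 0.47 without the lowest animal (adjusted p = 0.0794). Gpnmb, a marker of phagocytic microglia, gave r = 0.52 and rho = 0.35 (permutation adjusted p = 0.0356 and 0.0948), and 0.20 without that animal (adjusted p = 0.385). Fos gave r = 0.08 and rho = 0.19 (permutation adjusted p = 0.656 and 0.333), with opposite signs by day, 0.69, -0.51 and 0.22. Trh of the uninjected side gave r = -0.36 and rho = -0.46 (permutation adjusted p = 0.0972 and 0.0567), and r = -0.09 with the slide effect removed.

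By their mean levels in the 12 groups, the genes most like Trh were Pdlim3 (Pearson r = 0.975), Cartpt (0.959), Gdnf (0.956), Hsd17b12 (0.954), Cenpa (0.953), Hspb3 (0.952), Dusp2 (0.952) and Galnt2 (0.951). These 12 means share arrays and include the injected-side groups that chose Trh. Of 11380 genes, 46 had r above 0.9, so the likeness is a description. Pdlim3, which encodes a muscle-type actin-associated protein, had the course closest to Trh: its injected-side difference was 0.54, 1.06 and 1.58 log2 units at days 7, 28 and 60. Gdnf, a trophic factor for neurons, differed by 1.64, 1.39 and 1.61. Hspb3, a small heat shock protein, went from 0.80 to 1.21 to 1.47, and Galnt2, a glycosyltransferase, from 0.19 to 0.21 to 0.43. Hsd17b12 went from 0.405 to 0.504 to 0.817, Cenpa from 0.942 to 0.608 to 1.426 and Dusp2 from 0.664 to 1.192 to 1.135. Galnt2 did not pass at days 7 and 28 (limma adjusted p = 0.362 and 0.253), nor did Hsd17b12 (0.165 and 0.0506). Pdlim3 did not pass at day 7 (limma adjusted p = 0.0824).

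Within the 26 injected-side KA arrays, over deviations from group means, the most alike were Serpinf2 (r = 0.780), Gldn (0.761), Cbfb (0.754), S100a6 (0.747) and Naprt (0.742), and 17 of 11380 genes exceeded 0.7. Without both arrays of the animal with the lowest Trh these 5 values were 0.674, 0.655, 0.643, 0.627 and 0.626, and their ranks among all genes were 4, 5, 7, 12 and 13, so the order depends on that animal. None of the 5 was among the 8 genes most alike over group means. Their injected-side differences at day 60 were 2.29 for Serpinf2, 1.69 for Gldn, 0.03 for Cbfb, 1.03 for S100a6 and 0.42 for Naprt.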

How the data were processed

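Per the labels' protocols, total RNA of hippocampi kept in RNAlater was labelled with biotin. BeadStudio, GenomeStudio and Partek are named by the submitters' processing notes, without versions. The deposited table gives a background-subtracted intensity and a detection p-value per probe. The deposited series matrix gives log2 values with a median of 6.317 on every array, and these were used here. Of 25697 lines of the intensity table, 21244 were used and 4453 were not, since in those lines the values no longer stand under their own column names. The detection values of 1 array stood 1 line off and were realigned. Replicates are separate animals, linked across sides by animal number. The slide of an array was read from the number at the start of its array name, and the slides were numbered here.

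Probes detected at p under 0.05 on at least 4 arrays were kept (16646), and the brightest per symbol was taken (11381 genes). Limma 3.58.1 (R 4.3.3) was fitted to 12 group means with animal as a random block (consensus correlation 0.0802), and p was adjusted over all genes per contrast. Arrays detected 46.8% to 66.9% of probes. No arrays had identical values. The fit was tested on simulated data. Differences of the KA effect between sides were added after the files were seen. Members, lists and tests were chosen with earlier results of these data known. Genes named are Trh, the 8 and 5 genes most like it, all called members of the TRH and thyroid lists, up to 4 of each other list, and Cartpt, Npy, Pdyn, Bdnf, Fos, Gfap and Gpnmb; Adcyap1, Tac1, Nts and genes named as not passing were added after their values were seen. Alternatives were neqc values, median scaling, no filter, a strict filter, mean of probes, no animal block, blocks for replicate number or slide, and leaving out each array.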

Additional observations from a re-analysis of the deposited data

Results flagged for a closer look

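Of 18 groups of 4 to 10 values, 3 had an end value set far from the rest by Dixon's criterion, where chance gives about 1 in 20 groups. In injected-side sham animals of day 60, replicate 5 read 5.04 for Trh, with the next value at 5.76 (gap over range 0.79 against a critical 0.71), and 49.3% of probes were detected on that array. In CL KA animals of day 60, replicate 8 read 7.75, with a gap ratio of 0.69 against 0.493, also with 49.3% of probes detected, on the same slide (9). Among sham animals of day 7, the animal of injected-side replicate 4 differed by 0.66 between its hippocampi, with a gap ratio of 0.83 against 0.829. The part of array brightness in these values was not tested.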

How the results depend on the processing

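Of 432 alternative values of the main results, 406 kept their direction and side of the threshold and, where a value had no test or was a count, also stayed within the replicate spread or within 1.5 times the count. Leaving out each array in turn gave injected-side Trh differences of 2.93 to 3.62 at day 7, 3.45 to 3.88 at day 28 and 4.84 to 5.26 at day 60. The growth of the difference was 1.40 to 2.09 from day 7 to 60, 0.02 to 0.71 from day 7 to 28 and 1.14 to 1.62 from day 28 to 60. CL differences were 0.51 to 0.76, -0.86 to -0.34 and 0.17 to 0.45, sham IL minus CL -0.24 to -0.07, and the CL change over days -0.47 to -0.13. Median scaling, which put the median of all genes at -0.153 (IL) and -0.116 (CL) at day 7, gave 4.75, 5.08 and 7.28 for the injected side, 2.12, -1.27 and 1.32 for the CL side (none past the threshold), 0.075 for sham IL minus CL, and 1 listed gene called in place of 2 at CL day 28. Sham IL minus CL was 0.032 without CL sham arrays 1 and 2 of day 28. Within slides, which hold 1 or 2 arrays a group, the injected side gave 1.41 (slide 6, day 28), 2.78 (slide 5) and 7.04 (slide 9, day 60). The CL side gave 1.27 (slide 2, day 7), 0.01 and 0.23 (slides 4 and 5, day 28) and 2.09 (slide 9, day 60), and sham IL minus CL 0.37 and 0.33 (slides 5 and 6, day 28) and 0.01 and 0.61 (slides 5 and 8, day 60). With slide as a block 1 listed gene was called in place of 0 at CL day 60. Among animals, r for Pdyn became 0.51 with neqc values (adjusted p = 0.0417, permutation) and 0.49 without the 2 farthest animals (0.0483), where CL Trh gave -0.53 (0.0483), Cartpt 0.39 and Gpnmb 0.22. Without the animal with the lowest Trh, Cartpt gave 0.46, Bdnf 0.47, Gpnmb 0.20 and Pdyn 0.29 (0.285). With slide removed Bdnf gave 0.50 and did not pass, though the permutation p of that setting can be too low. The causes of these changes were not tested. Of 1542 alternative values of 72 gene calls, 61 lost the call and 0 changed sign. The strict filter (p under 0.01 on 40 arrays) dropped Trh, detected so on 37.

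The replicate number did not mark the animal: in 6 of 40 animals both arrays had 1 shared number, and 14 of 40 same-number pairs deviated together (r over 0.1, median 0.05). With the replicate number as a block, Trh differed by 3.20, 3.71 and 5.08 on the injected side and by 0.67, -0.56 and 0.44 on the other, and no Trh call changed.

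Trh lay near background outside injected-side KA arrays, so small differences there were not detectable. It was measured by 1 probe.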
